A study of Mus musculus with 8 samples.

Results

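The 40 genes described here are the amino acid and integrated stress response genes of mouse 3T3-L1 cells, an established line of preadipocytes that turns into fat cells under a hormone cocktail. They were taken by name from a list of transcripts linked to the transcription factor Atf4: 7 regulators and effectors of the stress response, 6 enzymes of serine and one-carbon metabolism, 6 enzymes of other amino acids, 6 amino acid transporters, 3 secreted factors and 12 tRNA synthetases. All 40 were among the 46073 genes of the table, and 38 passed the filter on low values, which asked for at least 1 FPKM in at least 2 libraries. Fgf21 and Gdf15 did not pass.

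RNA was sequenced from cells labelled CR-Ddx6, called Ddx6-KO here, and from cells labelled CR-tdTomato, called TOM, before induction (day 0) and 2 days after it (day 2), with 2 libraries in each of the 4 groups. Ddx6 encodes a DEAD-box RNA helicase needed for processing bodies, the cytoplasmic granules that hold silenced and decaying mRNA. Both lines were transduced with a lentivirus carrying Cas9 and a guide, against Ddx6 in the Ddx6-KO line and against the tdTomato sequence, which 3T3-L1 cells lack, in the TOM line, and were selected with puromycin. Edited cells were cloned by limiting dilution, so that the edit and the clone cannot be told apart. The cocktail contained isobutylmethylxanthine, dexamethasone and insulin. The treatment note gives harvest after 2 days of induction for every sample, whereas the titles separate day 0 and day 2, and the titles were followed. Whether the 2 libraries of a group are separate cultures is not stated. The study's methods mention triplicates for gene expression in general, while 2 libraries a group were used here. The p-values therefore rest on a spread that may be technical. Libraries 1 and 2 of a group are named after the column numbers of the table, and library 1 is given first throughout. Because the material is bulk RNA, fewer cells of a type and less RNA per cell cannot be told apart.

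Levels are FPKM, fragments normalised to transcript length and library size, which can be compared between genes. Differences are those of group means of log2(FPKM + 1), the first group minus the second, with the standard error (SE) and the p-value of limma adjusted over all 15811 genes tested, and a gene is called higher or lower at an adjusted p under 0.05. All differences and changes below are in these log2 units, in which the added 1 shrinks the change of genes with low FPKM.

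In the integrated stress response, kinases that sense amino acid shortage, unfolded protein in the endoplasmic reticulum, double-stranded RNA or haem shortage phosphorylate the translation initiation factor eIF2. Bulk translation slows, while the mRNA of Atf4 is translated more, and Atf4 protein with C/EBP partners then turns on genes that make, import and charge amino acids onto tRNA. Atf4 activity is thus set largely by translation, which RNA levels do not measure.

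Depth was estimated from the smallest FPKM steps at about 1380000 and 2360000 fragments in Ddx6-KO day 2 libraries, 5310000 and 3340000 in Ddx6-KO day 0 libraries, 2290000 and 2530000 in TOM day 2 libraries and 19540000 and 3160000 in TOM day 0 libraries. Ddx6 RNA was not lower in the libraries labelled Ddx6-KO: it had 50 and 43.04 FPKM at day 2 and 27.2 and 31.9 FPKM at day 0, against 28.8 and 28.4 FPKM and 11.3 and 19.9 FPKM in TOM libraries, with log2 differences of 0.68 (SE 0.25, adjusted p = 0.0989) and 0.93 (SE 0.25, adjusted p = 0.0554). A level over the whole gene does not test for a short indel, and the labels were used as given. The summed FPKM of 8 adipocyte markers was 22.4 to 26.3 in Ddx6-KO day 2 libraries and 42.2 to 44.6 in Ddx6-KO day 0 libraries, against 672 to 680.0 in TOM day 2 libraries and 212.5 to 236.4 in TOM day 0 libraries. The 9 preadipocyte markers summed to 1216 to 1244 FPKM in Ddx6-KO day 2 libraries and 1215 to 1217 in Ddx6-KO day 0 libraries, against 1483 to 1543 in TOM day 2 libraries and 2020 to 2201 in TOM day 0 libraries. Of the 8 preadipocyte markers tested, 5 were called lower and 1 higher in Ddx6-KO cells than in TOM cells at day 0. At day 2, 3 were lower and 2 higher. Of the 8 adipocyte markers, 2 were called lower at day 0 and 7 at day 2, and none higher. Over all genes tested, 4.81% were called lower and 6.55% higher at day 0, and 8.58% and 10.4% at day 2. The 7 macrophage markers summed to 4.02 or less. The predicted gene Gm10800 took 11.84% and 24.66% of the summed FPKM of Ddx6-KO day 2 libraries. It took 5.81% and 10.39% in Ddx6-KO day 0 libraries and 1.98% to 13.04% in TOM libraries. Only Ddx6-KO day 2 library 2 thus lay above all other libraries. Both Ddx6-KO day 2 libraries stood apart in their 10 highest genes, which took 53.1% and 59.5%, against 41.0% to 46.9% in the other 6 libraries. The correlation of log2 values across genes between the libraries of a group was 0.888 there, against 0.941 to 0.95 in the other groups. Rescaling each library to a constant sum (TPM) moved the median change of all genes between day 2 and day 0 to -0.19 in Ddx6-KO cells, against 0.09 as deposited, and to -0.14 in TOM cells, against 0.03 as deposited. The part of depth, marker levels and scaling in the results below was not tested except where a value is given.

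The letters that Atf4 and its C/EBP partners are known to bind, TGATGNAA in either strand, were found in the promoters of several members. Promoters were the RefSeq windows of GRCm38.p6 from 250 bases before to 50 bases after a gene's start. Of the 33 members matched to a window, 13 held the motif, which is 39.4%, against 4.51% of the 27025 genes with a window and 3.97% of all 32851 windows. These were Trib3, Nupr1, Chac1, Asns, Pycr1, Slc7a11, Slc1a4, Fgf21, Aars, Gars, Iars, Tars and Yars. Such a match is a description of the letters, not a binding site. Because the members were chosen for their link to Atf4, their share above that of all genes is not an independent result. The following 30-base stretches are shown because they belong to members whose levels are described below, and are read 5′ to 3′ on the gene's strand with the motif in capitals.
Asns (chr6:7693214-7693243): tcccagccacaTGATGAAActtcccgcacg
Nupr1 (chr7:126625562-126625591): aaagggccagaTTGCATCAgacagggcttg
Trib3 (chr2:152344028-152344057): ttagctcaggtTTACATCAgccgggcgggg
Gars (chr6:55037960-55037989): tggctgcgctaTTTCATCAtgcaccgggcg
The motif began at -23 in Asns, -110 in Nupr1, 14 in Trib3 and -30 in Gars, counted in bases from the start site of the window. It lay on the gene's own strand in Asns and on the other strand in the remaining 3.

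Over 2 days of induction, most members fell in cells labelled Ddx6-KO. Of the 38 tested, 20 were called lower at day 2 than at day 0 and 1, the transporter subunit Slc3a2, was called higher, against a background of 5.85% of all genes tested called lower and 4.8% called higher. The called genes covered every kind of member but the secreted factors: 4 of 7 regulators, 5 of 6 serine and one-carbon enzymes, 2 of 6 enzymes of other amino acids, 1 of 6 transporters and 8 of 12 synthetases were lower. The median difference over the 38 was -0.80, against 0.09 over all genes, and 34 lay below 0. Among the 7823 genes with a mean of at least 5 FPKM, 9.59% were called lower, against 18 of the 33 members in that range. The count of 20 rested on few libraries: it was 7 and 6 without Ddx6-KO day 0 library 1 or 2, and 12 without either Ddx6-KO day 2 library. It was 10 with no filter on low values and 8 with the 4 Ddx6-KO libraries fitted alone. With median-ratio scaling it was 19 and with quantile normalization 21. The calls of Atf5, Shmt2, Mthfd1l, Tars and Yars were each lost in 7 or 8 of the 8 fits that left out a library. The Ddx6-KO day 2 libraries also had a larger share in their 10 highest genes and a lower correlation, and library 2 a high Gm10800 share. The part of these traits in the count was not tested further.

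Fewer members were called in TOM cells. Between day 2 and day 0, 8 of the 38 were lower (Atf5, Trib3, Nupr1, Chac1, Slc7a5, Aars, Nars and Sars) and 1, the cystathionine lyase Cth, was higher, against 3.74% and 3.4% of all genes tested. Of the 7823 genes with a mean of at least 5 FPKM, 5.96% were called lower and 5.71% higher. Of the 33 members in that range, 7 were lower and 1 higher. The median difference was -0.35, against 0.03 over all genes, and 29 of the 38 lay below 0. Without TOM day 0 library 1 or 2 the count of lower members was 2 and 4, without TOM day 2 library 1 or 2 it was 3 and 2, and it was 5 when either Ddx6-KO day 0 library was left out. It was 5 with no filter on low values and 1 with the 4 TOM libraries fitted alone. With TPM the median over the members was -1.21 in Ddx6-KO cells and -0.56 in TOM cells, beside the all-gene medians given above.

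**Figure D1:**
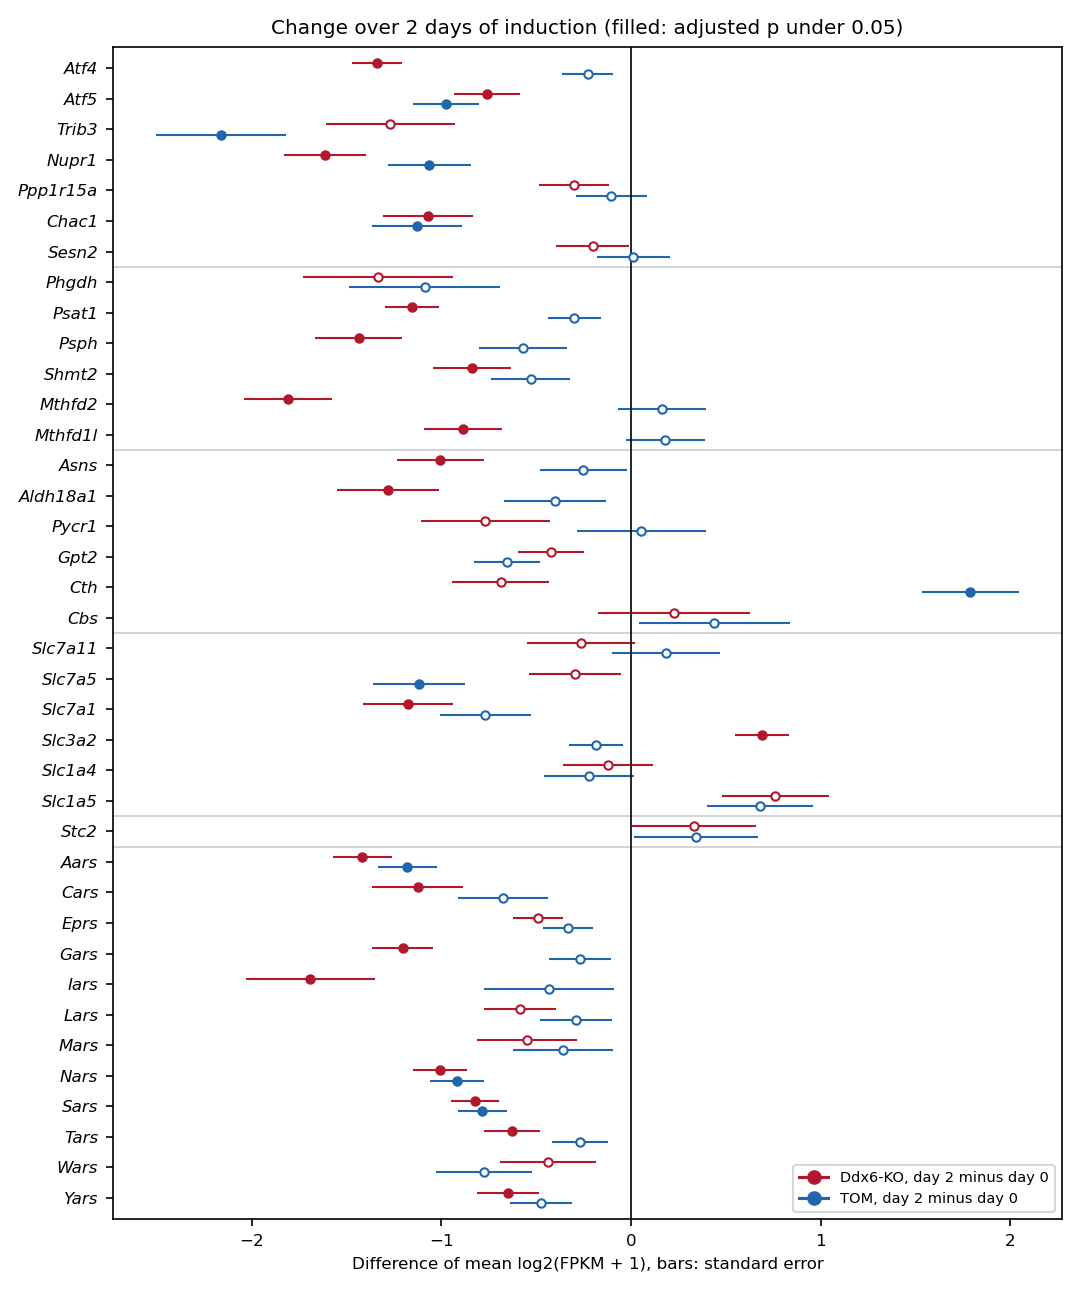
Difference of mean log2(FPKM + 1) between day 2 and day 0 for the 38 members tested (x axis, log2 units, bars are standard errors), with Ddx6-KO cells in red and TOM cells in blue, grouped by role from regulators at the top to tRNA synthetases at the bottom. Filled points have an adjusted p under 0.05: 21 in Ddx6-KO cells, of which Slc3a2 alone lies right of 0, and 9 in TOM cells, of which Cth alone does.

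At day 2, several members were lower in libraries labelled Ddx6-KO than in TOM libraries: 14 of 38 were called lower and 3 (Nupr1, Gpt2 and Nars) higher, beside 8.58% and 10.4% of all genes tested. The lower ones were Atf4, Atf5, 5 of 6 serine and one-carbon enzymes, Asns, Cth, the transporters Slc7a1 and Slc1a5, and the synthetases Aars, Gars and Tars. The median was -0.50, against 0.11 over all genes. Of the 7823 genes with a mean of at least 5 FPKM, 14.0% were called lower and 12.3% higher. Of the 33 members in that range, 13 were lower and 3 higher. The count of lower members was 7 and 6 without TOM day 2 library 1 or 2, 9 without either Ddx6-KO day 0 library or without Ddx6-KO day 2 library 1, and 3, with none higher, in the 4 day 2 libraries fitted alone. The calls of Psat1, Slc7a1, Aars, Gars, Tars and Nars at day 2 were each lost in 5 or more of the 8 fits that left out a library.

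At day 0 the list was split. Nupr1, Pycr1, Gpt2 and Nars were higher and Atf5, Trib3, Cth, Slc7a5 and Slc1a5 lower in libraries labelled Ddx6-KO than in TOM libraries, 4 and 5 of 38, beside 6.55% and 4.81% of all genes tested. Of the 7823 genes with a mean of at least 5 FPKM, 10.5% were called higher and 7.71% lower. The 33 members in that range held all 4 higher and all 5 lower calls. The median was -0.01, against 0.05 over all genes, and 19 of the 38 lay below 0. Of the 6 serine and one-carbon enzymes limma called 0 at day 0, with 1 lower at an unadjusted p under 0.05 (Shmt2, -0.77 (SE 0.21, adjusted p = 0.0575)). The counts fell to 1 higher and 1 lower without either Ddx6-KO day 0 library, and to 1 higher and 2 lower without either TOM day 0 library. Without either TOM day 2 library 3 were lower, and with no filter on low values 2 were higher and 3 lower.

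**Figure D2:**
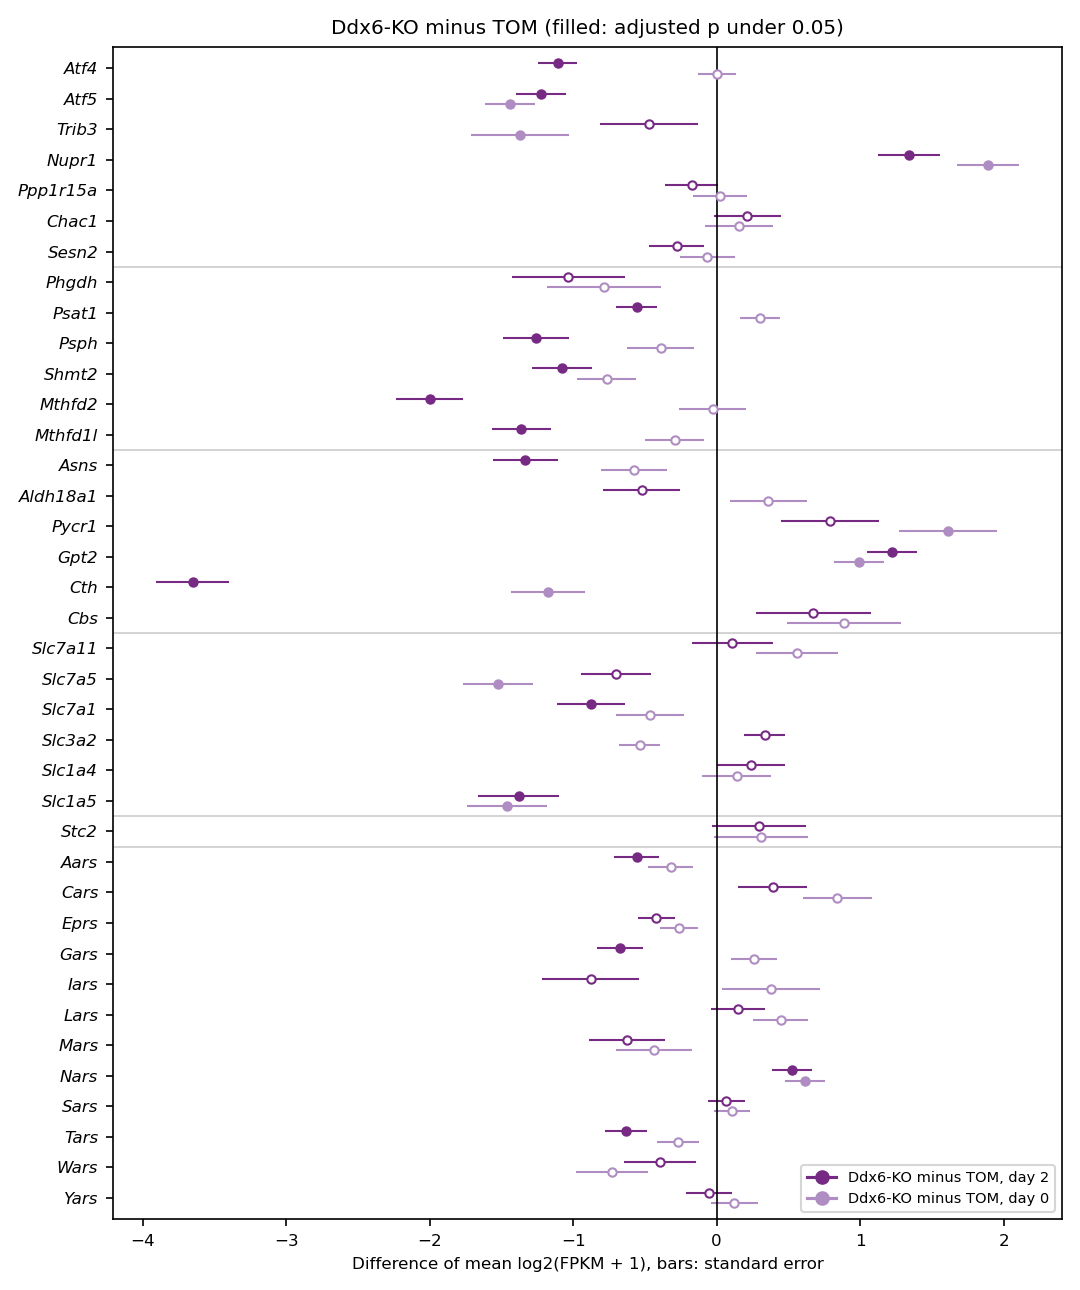
Difference of mean log2(FPKM + 1) between Ddx6-KO and TOM cells for the 38 members tested (x axis, log2 units, bars are standard errors), at day 2 in dark purple and at day 0 in light purple, grouped by role as above. Filled points have an adjusted p under 0.05: 17 at day 2 and 9 at day 0, with Cth at day 2 farthest left at -3.65.

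The change over induction itself differed between the lines for Atf4, Mthfd2 and Cth, all 3 more negative in Ddx6-KO cells, as tested by the interaction of line and day in limma. The background was 2.17% of all genes tested with a lower and 2.02% with a higher difference of changes. No member had a higher one, with 2 higher and 8 lower at an unadjusted p under 0.05. Of the 7823 genes with a mean of at least 5 FPKM, 3.84% had a lower difference of changes, against 3 of the 33 members in that range. With a mean of at least 10 FPKM these were 4.77% of 4881 genes and 2 of 22 members. The median over the members was -0.24, against 0.04 over all genes. None of the 3 was called without either Ddx6-KO day 0 library or without either TOM day 2 library, and 2 were called without Ddx6-KO day 2 library 1 or without TOM day 0 library 2. With a filter at 5 FPKM, or with a threshold of 0.1, 5 were lower and 1 higher.

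Among the regulators, Atf4 (chr15:80255184-80257541, mm10) stood near a common level except in Ddx6-KO cells at day 2. It had 29.2 and 30.4 FPKM in Ddx6-KO day 2 libraries, 76.2 and 77.5 FPKM in Ddx6-KO day 0 libraries, 66.4 and 64.3 FPKM in TOM day 2 libraries and 83.7 and 70.3 FPKM in TOM day 0 libraries. Both Ddx6-KO day 2 libraries were below the other 6, and the Ddx6-KO and TOM libraries of day 0 overlapped. Its change over induction was -1.34 (SE 0.13, adjusted p = 0.00137) in Ddx6-KO cells and -0.23 (SE 0.13, adjusted p = 0.41) in TOM cells, and the difference of these changes was -1.11 (SE 0.19, adjusted p = 0.0209). Ddx6-KO cells differed from TOM cells by -1.11 (SE 0.13, adjusted p = 0.00248) at day 2. At day 0 the difference was 0.00, with a 95% interval of -0.31 to 0.31. Both called differences of Atf4 between groups of 2 libraries, at day 2 and over induction in Ddx6-KO cells, were called in all 8 fits that left out a library.

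Atf5 (chr7:44812256-44816658), a related stress factor, was lower in Ddx6-KO cells at both days and lower at day 2 in both lines. It had 8.51 and 6.51 FPKM in Ddx6-KO day 2 libraries, 12.5 and 14.2 FPKM in Ddx6-KO day 0 libraries, 19.6 and 17.96 FPKM in TOM day 2 libraries and 35.9 and 39.95 FPKM in TOM day 0 libraries. The 4 groups did not overlap, with Ddx6-KO day 2 lowest and TOM day 0 highest. The difference between Ddx6-KO and TOM was -1.23 (SE 0.18, adjusted p = 0.0046) at day 2 and -1.44 (SE 0.18, adjusted p = 0.00356) at day 0. It fell over induction by 0.76 on the log2 scale in Ddx6-KO cells (SE 0.18, adjusted p = 0.0357), a call lost in 7 of the 8 fits that left out a library, and by 0.97 in TOM cells (SE 0.18, adjusted p = 0.0171). The call in TOM cells was lost without any one of the 4 TOM libraries and with the TOM libraries fitted alone. The gene overlaps Il4i1 on the other strand.

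Nupr1 (chr7:126623249-126630861), a small stress-induced chromatin protein, went the other way between lines. It had 38.3 and 31.7 FPKM in Ddx6-KO day 2 libraries, 109 and 108 FPKM in Ddx6-KO day 0 libraries, 16.5 and 10.5 FPKM in TOM day 2 libraries and 30.8 and 26.6 FPKM in TOM day 0 libraries. Every Ddx6-KO library exceeded every TOM library, and both day 2 groups lay below the day 0 group of the same line. The Ddx6-KO level was higher by 1.34 (SE 0.22, adjusted p = 0.00749) at day 2 and by 1.89 (SE 0.22, adjusted p = 0.00284) at day 0, while the change over induction was -1.61 (SE 0.22, adjusted p = 0.00464) in Ddx6-KO cells and -1.06 (SE 0.22, adjusted p = 0.0284) in TOM cells. The last of these calls was lost in 5 of the 8 fits that left out a library, and the other 3 in none.

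Trib3, a pseudokinase that restrains Atf4, had 0.719 and 2.21 FPKM in Ddx6-KO day 2 libraries, 4.304 and 5.04 FPKM in Ddx6-KO day 0 libraries, 2.83 and 1.78 FPKM in TOM day 2 libraries and 15.7 and 11.8 FPKM in TOM day 0 libraries. The TOM day 0 libraries stood above the other 6, and the groups of day 2 overlapped. By the depth estimate, Trib3 rested on about 2.1 and 11.1 fragments in Ddx6-KO day 2 libraries and 13.8 and 9.5 in TOM day 2 libraries. The change over induction was -1.27 (SE 0.34, adjusted p = 0.0584) in Ddx6-KO cells, which did not pass the threshold. In TOM cells it was -2.16 (SE 0.34, adjusted p = 0.00976), and the difference of these changes was 0.89, with a 95% interval of -0.24 to 2.03. At day 0 Ddx6-KO cells differed from TOM cells by -1.37 (SE 0.34, adjusted p = 0.0439), a call lost in 6 of the 8 fits that left out a library. Chac1, which breaks down glutathione, was called lower at day 2 in both lines, with changes of -1.07 (SE 0.24, adjusted p = 0.0311) in Ddx6-KO cells and -1.13 (SE 0.24, adjusted p = 0.0311) in TOM cells, calls lost in 3 and 6 of the 8 fits that left out a library. Chac1 had only about 6.2 to 8.2 fragments in each day 2 library by the same estimate. Ppp1r15a, the subunit that directs dephosphorylation of eIF2, and Sesn2, a leucine sensor upstream of mTORC1, passed no test. They ranged from 5.24 to 7.65 FPKM over all 8 libraries.

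**Figure D3:**
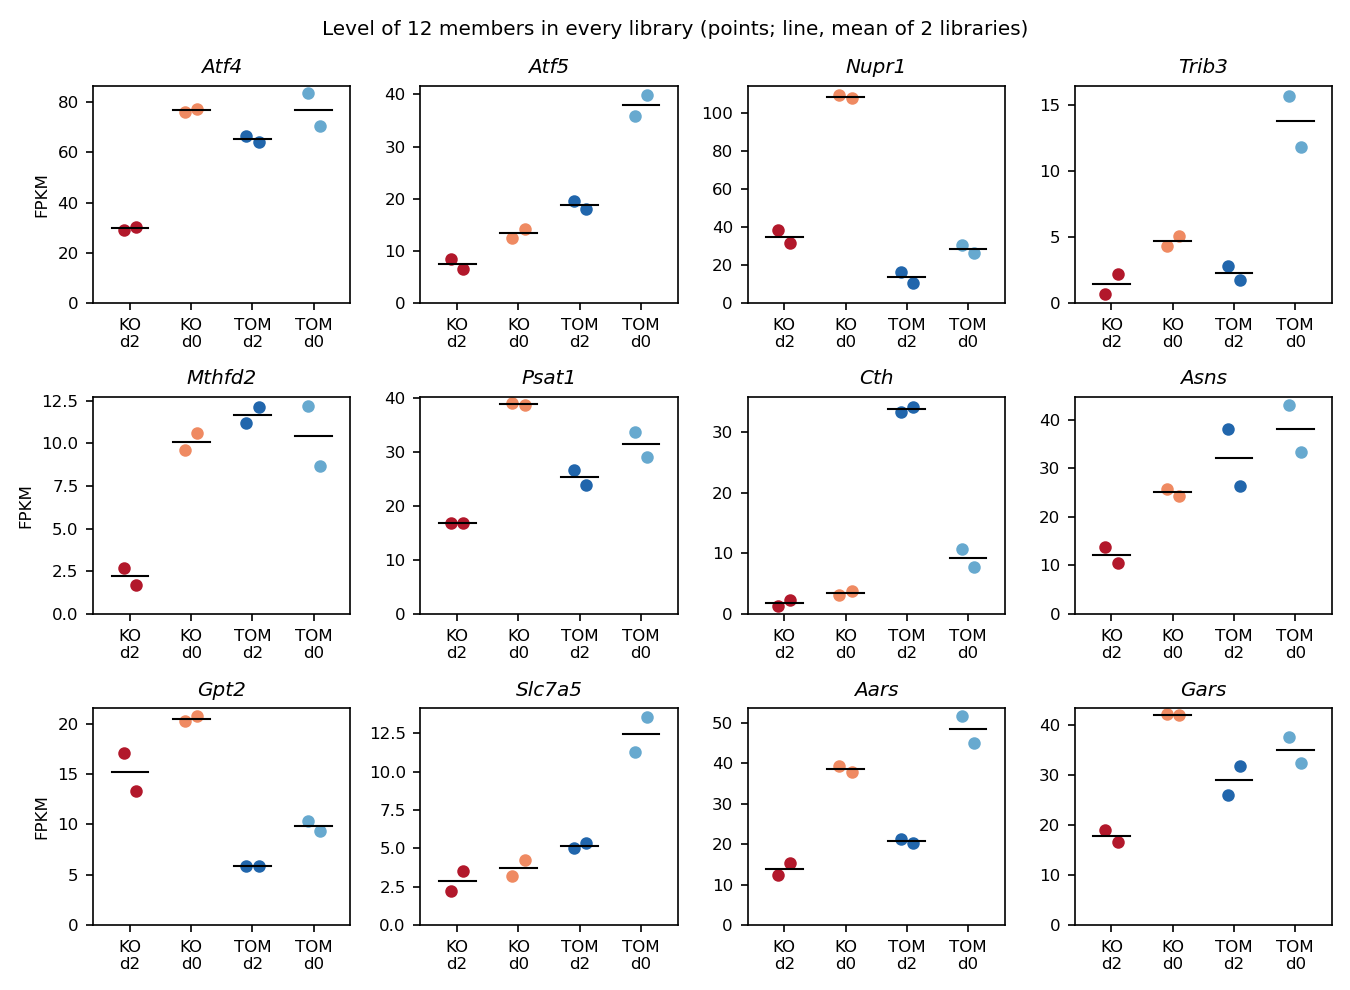
FPKM (y axis, from 0) of 12 members in each of the 8 libraries, with the groups Ddx6-KO day 2, Ddx6-KO day 0, TOM day 2 and TOM day 0 from left to right, the 2 libraries of a group as points and their mean as a line. Atf4, Psat1 and Mthfd2 are lowest in Ddx6-KO day 2 libraries, Cth is highest in TOM day 2 libraries at 33.3 and 34.1 FPKM, and Nupr1 and Gpt2 are higher in Ddx6-KO than in TOM libraries at both days.

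The enzymes that make serine from a glycolytic intermediate (Phgdh, Psat1, Psph) and pass its carbon into the mitochondrial folate pathway (Shmt2, Mthfd2, Mthfd1l) had the largest share of members called over induction in Ddx6-KO cells. Summed over the 6, their level was 29.6 and 27.5 FPKM in Ddx6-KO day 2 libraries, 74.8 and 73.8 FPKM in Ddx6-KO day 0 libraries, 60.6 and 67.3 FPKM in TOM day 2 libraries and 85.3 and 77.6 FPKM in TOM day 0 libraries. In Ddx6-KO cells 5 of the 6 fell over induction, with a median difference of -1.25 over the 6. Of these 5 calls, those of Shmt2 and Mthfd1l were lost in all 8 fits that left out a library, and that of Psph in 2. Phgdh, Psph, Shmt2, Mthfd2 and Mthfd1l rested on only about 6.7 to 26.9 fragments in each Ddx6-KO day 2 library, by the depth estimate. Psat1 had about 99.4 and 168.8 there. In TOM cells limma called 0 of 6, with 3 lower at an unadjusted p under 0.05 (Phgdh, Psph and Shmt2), and the median was -0.41.

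Mthfd2 (chr6:83305691-83325908), the mitochondrial methylenetetrahydrofolate dehydrogenase, had 2.69 and 1.71 FPKM in Ddx6-KO day 2 libraries, 9.599 and 10.6 FPKM in Ddx6-KO day 0 libraries, 11.2 and 12.1 FPKM in TOM day 2 libraries and 12.2 and 8.69 FPKM in TOM day 0 libraries. The Ddx6-KO day 2 libraries lay below the other 6, among which the groups overlapped. Mthfd2 rested on only about 13.0 and 14.1 fragments in Ddx6-KO day 2 libraries, by the depth estimate. The change over induction was -1.81 (SE 0.23, adjusted p = 0.00388) in Ddx6-KO cells and 0.16 (SE 0.23, adjusted p = 0.775) in TOM cells, and the difference of changes was -1.97 (SE 0.33, adjusted p = 0.0201). At day 2 Ddx6-KO cells differed from TOM cells by -2.0 (SE 0.23, adjusted p = 0.00223), and at day 0 by -0.03, with a 95% interval of -0.57 to 0.52. Mthfd1l, the mitochondrial formyltetrahydrofolate synthetase, had 2.49 and 2.14 FPKM in Ddx6-KO day 2 libraries, 4.61 and 5.69 FPKM in Ddx6-KO day 0 libraries, 6.68 and 8.42 FPKM in TOM day 2 libraries and 6.65 and 6.36 FPKM in TOM day 0 libraries. It was again lowest in Ddx6-KO day 2 libraries, with a difference from TOM cells of -1.36 (SE 0.21, adjusted p = 0.00583) at day 2. Its change over induction in Ddx6-KO cells, -0.89 (SE 0.21, adjusted p = 0.0373), was lost in all 8 fits that left out a library.

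Psat1 (chr19:15904678-15947337), the phosphoserine aminotransferase, was the most abundant of the 6 and had 16.9 and 16.8 FPKM in Ddx6-KO day 2 libraries, 39.1 and 38.6 FPKM in Ddx6-KO day 0 libraries, 26.7 and 23.9 FPKM in TOM day 2 libraries and 33.7 and 29.1 FPKM in TOM day 0 libraries. No groups overlapped, with Ddx6-KO below TOM libraries at day 2 and above them at day 0, where the difference did not pass. The change over induction was -1.16 (SE 0.14, adjusted p = 0.00317) in Ddx6-KO cells, called in all 8 such fits, and -0.30 (SE 0.14, adjusted p = 0.298) in TOM cells, and their difference of -0.86 (SE 0.20, adjusted p = 0.0643) did not pass. Psph, the phosphoserine phosphatase, had 2.35 and 2.08 FPKM in Ddx6-KO day 2 libraries, 7.07 and 8.36 FPKM in Ddx6-KO day 0 libraries, 6.13 and 7.26 FPKM in TOM day 2 libraries and 8.53 and 12.6 FPKM in TOM day 0 libraries. Its lowest values were again those of the Ddx6-KO day 2 libraries, with a change over induction of -1.44 (SE 0.23, adjusted p = 0.0097) and a difference from TOM cells of -1.26 (SE 0.23, adjusted p = 0.0118) at day 2. It overlaps Cct6a on the other strand. Shmt2, the mitochondrial serine hydroxymethyltransferase, was called lower at day 2 in Ddx6-KO cells, with a difference from TOM cells of -1.08 (SE 0.21, adjusted p = 0.0138), and Phgdh, the first enzyme of the pathway, passed no test, with 2.33 and 1.13 FPKM in Ddx6-KO day 2 libraries and 2.902 and 6.61 FPKM in TOM day 2 libraries.

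The enzymes of other amino acids did not move together. Asns (chr6:7675169-7693254), which makes asparagine and is a textbook target of Atf4, had 13.7 and 10.4 FPKM in Ddx6-KO day 2 libraries, 25.8 and 24.4 FPKM in Ddx6-KO day 0 libraries, 38.04 and 26.3 FPKM in TOM day 2 libraries and 43.1 and 33.3 FPKM in TOM day 0 libraries. Every Ddx6-KO library lay below every TOM library, and the 2 days of TOM cells overlapped. Its difference between Ddx6-KO and TOM was -1.33 (SE 0.23, adjusted p = 0.00926) at day 2, while that of -0.58 (SE 0.23, adjusted p = 0.163) at day 0 did not pass. Its change over induction was -1.01 (SE 0.23, adjusted p = 0.0345) in Ddx6-KO cells, lost without any one of the 4 Ddx6-KO libraries, and -0.25 (SE 0.23, adjusted p = 0.624) in TOM cells.

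Cth (chr3:157894248-157925077), the cystathionine gamma-lyase that makes cysteine, had the largest difference between the lines among the 38 members tested. It had 1.27 and 2.37 FPKM in Ddx6-KO day 2 libraries, 3.07 and 3.87 FPKM in Ddx6-KO day 0 libraries, 33.3 and 34.1 FPKM in TOM day 2 libraries and 10.6 and 7.67 FPKM in TOM day 0 libraries. The TOM day 2 libraries stood far above all others, and the Ddx6-KO day 2 libraries were lowest. By the depth estimate, Cth rested on only about 4.9 and 15.6 fragments in Ddx6-KO day 2 libraries. The change over induction was -0.69 (SE 0.26, adjusted p = 0.143) in Ddx6-KO cells, which did not pass, and 1.79 (SE 0.26, adjusted p = 0.0062) in TOM cells, and the difference of changes was -2.48 (SE 0.36, adjusted p = 0.0126). Ddx6-KO cells differed from TOM cells by -3.65 (SE 0.26, adjusted p = 0.000354) at day 2, with a mean FPKM 0.0539 times that of TOM cells, and by -1.17 (SE 0.26, adjusted p = 0.0281) at day 0, a call lost in 5 of the 8 fits that left out a library. The difference at day 2 was called in all 20 alternatives tried. Cth overlaps Gm43314 on the same strand, which stood at 2.13 FPKM or less in every library. Cbs, which makes the cystathionine that Cth cleaves, ranged from 0.121 to 3.10 FPKM and passed no test.

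Gpt2 (chr8:85492576-85527560), the mitochondrial alanine aminotransferase, was higher in Ddx6-KO cells. It had 17.1 and 13.3 FPKM in Ddx6-KO day 2 libraries, 20.2 and 20.8 FPKM in Ddx6-KO day 0 libraries, 5.86 and 5.91 FPKM in TOM day 2 libraries and 10.4 and 9.32 FPKM in TOM day 0 libraries. Every Ddx6-KO library exceeded every TOM library, by 1.22 (SE 0.17, adjusted p = 0.00442) at day 2 and 0.99 (SE 0.17, adjusted p = 0.013) at day 0. The second call was lost without any one of the 4 day 0 libraries. Aldh18a1, the first enzyme of proline synthesis from glutamate, had 7.47 and 5.72 FPKM in Ddx6-KO day 2 libraries, 20.3 and 14.8 FPKM in Ddx6-KO day 0 libraries, 12.2 and 7.86 FPKM in TOM day 2 libraries and 15 and 11.8 FPKM in TOM day 0 libraries. Its values at day 2 lay below those at day 0 in Ddx6-KO cells, with a change of -1.28 (SE 0.27, adjusted p = 0.0261), a call lost without any one of the 4 Ddx6-KO libraries. Pycr1, the last enzyme of that path, was higher in Ddx6-KO cells at day 0, with 13.1 and 11.2 FPKM against 2.72 and 3.94 FPKM in TOM cells, a difference of 1.61 (SE 0.34, adjusted p = 0.0253). This call too was lost without any one of the 4 day 0 libraries.

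The transporters were also mixed. Slc7a5, the light chain of a carrier for leucine and other large neutral amino acids, had 2.199 and 3.52 FPKM in Ddx6-KO day 2 libraries, 3.17 and 4.21 FPKM in Ddx6-KO day 0 libraries, 4.997 and 5.36 FPKM in TOM day 2 libraries and 11.3 and 13.6 FPKM in TOM day 0 libraries. TOM day 0 libraries stood above all others, with a difference between Ddx6-KO and TOM of -1.52 (SE 0.24, adjusted p = 0.00952) at day 0 and a change in TOM cells of -1.12 (SE 0.24, adjusted p = 0.0361). These calls were lost in 3 and 6 of the 8 fits that left out a library. Slc3a2, the heavy chain that brings Slc7a5 to the membrane, had 27.7 and 32.4 FPKM in Ddx6-KO day 2 libraries, 18.7 and 17.7 FPKM in Ddx6-KO day 0 libraries, 24.1 and 22.99 FPKM in TOM day 2 libraries and 26.3 and 27.4 FPKM in TOM day 0 libraries. Its Ddx6-KO day 2 libraries were highest and its Ddx6-KO day 0 libraries lowest, and the change of 0.69 (SE 0.14, adjusted p = 0.0249) was the only difference above 0 to pass the test among the members in Ddx6-KO cells. It was lost in 3 of the 8 fits that left out a library (either Ddx6-KO day 0 library or Ddx6-KO day 2 library 2). With TPM it was 0.28 (adjusted p = 0.356), and no member was then called higher.

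Slc1a5, a carrier of glutamine and small neutral amino acids, had 7.53 and 14.7 FPKM in Ddx6-KO day 2 libraries, 6.34 and 5.37 FPKM in Ddx6-KO day 0 libraries, 28.2 and 30.1 FPKM in TOM day 2 libraries and 16.5 and 19.2 FPKM in TOM day 0 libraries. Every Ddx6-KO library lay below every TOM library, with differences of -1.38 (SE 0.28, adjusted p = 0.0165) at day 2 and -1.46 (SE 0.28, adjusted p = 0.0184) at day 0. The call at day 2 was lost without either TOM day 2 library, and that at day 0 without any one of the 4 day 0 libraries. Slc7a1, a carrier of arginine and lysine, had 1.62 and 1.87 FPKM in Ddx6-KO day 2 libraries, 5.31 and 5.08 FPKM in Ddx6-KO day 0 libraries, 3.304 and 4.86 FPKM in TOM day 2 libraries and 6.59 and 8.65 FPKM in TOM day 0 libraries. Ddx6-KO day 2 libraries were lowest, with a change over induction of -1.18 (SE 0.24, adjusted p = 0.0232) and a difference from TOM cells of -0.88 (SE 0.24, adjusted p = 0.0424) at day 2. The first call was lost without any one of the 4 Ddx6-KO libraries, and the second in all 8 fits that left out a library. Slc7a11, the cystine carrier, stood at 0.733 to 1.83 FPKM and Slc1a4, a carrier of alanine, serine and cysteine, at 4.65 to 8.09 FPKM, and neither passed a test.

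The secreted factors were near the floor of these libraries. Stc2, a glycoprotein of the stress response, had 1.06 and 1.34 FPKM in Ddx6-KO day 2 libraries, 0.693 and 0.803 FPKM in Ddx6-KO day 0 libraries, 0.43 and 1.24 FPKM in TOM day 2 libraries and 0.286 and 0.545 FPKM in TOM day 0 libraries. These values overlapped between the lines at day 2, and no difference passed, from -0.01 for the difference of changes to 0.34 for the change in TOM cells. Fgf21, a hormone of the fasting and stress responses, was listed at 0 in 5 of 8 libraries and at 0.871 FPKM or less in the others. Gdf15, a circulating stress cytokine, was listed at 0 in 3 libraries and at 0.601 FPKM or less in the others. Fgf21 and Gdf15 did not pass the filter and were not tested.

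The 12 tRNA synthetases of the list, the cytosolic enzymes that load amino acids onto tRNA, were mostly lower after induction in cells labelled Ddx6-KO, where 8 passed the test. Their summed level was 234 and 237 FPKM in Ddx6-KO day 2 libraries, 441 and 449.5 FPKM in Ddx6-KO day 0 libraries, 274.0 and 274.0 FPKM in TOM day 2 libraries and 419 and 420.2 FPKM in TOM day 0 libraries. All 12 had a difference below 0 over induction in both lines. In Ddx6-KO cells Aars, Cars, Gars, Iars, Nars, Sars, Tars and Yars were called lower, with a median of -0.74 over the 12. In TOM cells 3 were (Aars, Nars and Sars), with a median of -0.45. No difference of changes passed limma's adjusted test for a synthetase, with 2 lower at an unadjusted p under 0.05.

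Aars (chr8:111033144-111057664), the alanyl-tRNA synthetase, had 12.4 and 15.4 FPKM in Ddx6-KO day 2 libraries, 39.2 and 37.8 FPKM in Ddx6-KO day 0 libraries, 21.3 and 20.2 FPKM in TOM day 2 libraries and 51.7 and 45.1 FPKM in TOM day 0 libraries. Both day 2 groups lay below both day 0 groups. The changes of -1.42 (SE 0.16, adjusted p = 0.00205) in Ddx6-KO cells and -1.18 (SE 0.16, adjusted p = 0.00464) in TOM cells were each called in all 8 fits that left out a library. Gars (chr6:55038007-55079500), for glycine, had 18.95 and 16.6 FPKM in Ddx6-KO day 2 libraries, 42.2 and 42.1 FPKM in Ddx6-KO day 0 libraries, 26.04 and 31.9 FPKM in TOM day 2 libraries and 37.7 and 32.4 FPKM in TOM day 0 libraries. Its Ddx6-KO day 2 libraries were lowest and its Ddx6-KO day 0 libraries highest. It changed by -1.20 (SE 0.16, adjusted p = 0.00457) in Ddx6-KO cells, called in all 8 such fits, and by -0.27 (SE 0.16, adjusted p = 0.427) in TOM cells, and the difference of changes was -0.94 (SE 0.23, adjusted p = 0.0729).

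Sars, for serine, was the most abundant synthetase and had 67.01 and 60.5 FPKM in Ddx6-KO day 2 libraries, 117 and 110.3 FPKM in Ddx6-KO day 0 libraries, 57.6 and 64.1 FPKM in TOM day 2 libraries and 103 and 107 FPKM in TOM day 0 libraries. The lines overlapped at day 2, and the changes over induction were -0.82 (SE 0.13, adjusted p = 0.00838) in Ddx6-KO cells and -0.78 (SE 0.13, adjusted p = 0.011) in TOM cells. Nars, for asparagine, had 24.7 and 29.1 FPKM in Ddx6-KO day 2 libraries, 52.7 and 57.2 FPKM in Ddx6-KO day 0 libraries, 18.1 and 18.6 FPKM in TOM day 2 libraries and 36.8 and 34.2 FPKM in TOM day 0 libraries. It was lower at day 2 in both lines, with changes of -1.01 (SE 0.14, adjusted p = 0.00565) in Ddx6-KO cells and -0.92 (SE 0.14, adjusted p = 0.00891) in TOM cells. Each Ddx6-KO group of Nars also exceeded the TOM group of the same day, by 0.53 (SE 0.14, adjusted p = 0.0417) at day 2 and 0.62 (SE 0.14, adjusted p = 0.0345) at day 0, and both of these calls were lost with TPM, with no filter, with no variance trend, with a replicate block and in 6 of the 8 fits that left out a library. Nars lies on chromosome 18, where the median difference between Ddx6-KO and TOM was 0.82 at day 2 and 0.77 at day 0 over 390 genes tested. Lars, for leucine, lies on the same chromosome and had a difference of 0.15 at day 2 and 0.45 at day 0 without passing. Medians of other chromosomes that hold members also lay away from 0. On chromosome 10, with Shmt2, Mthfd1l and Mars, the median was -0.31 at both days. On chromosome 3, with Phgdh, Cth, Slc7a11 and Sars, it was 0.41 at day 2 and 0.26 at day 0. On chromosome 1, with Eprs, it was 0.45 and 0.30. The part of these shifts in the values of Nars and other members was not tested.

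Among the others, Iars, for isoleucine, had the largest change of the 12 in Ddx6-KO cells, -1.69 (SE 0.34, adjusted p = 0.0229), a call lost in 3 of the 8 fits that left out a library. Yars, for tyrosine, had a change of -0.65 (SE 0.16, adjusted p = 0.0472), lost in all 8 such fits. Eprs, Lars, Mars and Wars were called in no comparison. Mars overlaps Ddit3 on the other strand. In all, 19 of the 40 members overlapped another annotated gene, 8 on the same strand and 14 on the other. The library kit keeps the strand, but whether the quantification used it is not stated.

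Genes of the same processes outside the 40 were taken from further lists. Of 11 other cytosolic synthetases and partners, 1 was lower over induction in Ddx6-KO cells (Farsb, -0.77 (SE 0.19, adjusted p = 0.0475), lost in 6 of the 8 fits that left out a library) and none in TOM cells, where at an unadjusted p under 0.05 1 was higher and 0 lower. Their medians were -0.14 and 0.23. Of 16 mitochondrial synthetases tested, limma called 0 over induction in either line, with 0 in Ddx6-KO cells and 4 higher in TOM cells at an unadjusted p under 0.05, and the medians were 0.11 and 0.08. Whether these lists differed from the 12 members was not tested. Hars, for histidine, also on chromosome 18, was higher in Ddx6-KO cells, relative to TOM cells, by 1.03 (SE 0.19, adjusted p = 0.0119) at day 2 and 0.96 (SE 0.19, adjusted p = 0.0203) at day 0.

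Upstream of Atf4, 2 of 14 eIF2 kinases and eIF2 or eIF2B genes were lower at day 2 than at day 0 in each line. This stands beside 5.85% of all genes tested in Ddx6-KO cells and 3.74% in TOM cells. In both lines it was the kinases Eif2ak4 (Gcn2, which senses uncharged tRNA) and Eif2ak2 (PKR, which senses double-stranded RNA). Eif2ak4 had 3.11 and 3.76 FPKM in Ddx6-KO day 2 libraries, 10.7 and 11.5 FPKM in Ddx6-KO day 0 libraries, 3.697 and 4.01 FPKM in TOM day 2 libraries and 11.5 and 11.2 FPKM in TOM day 0 libraries. Both day 2 groups were below both day 0 groups, with changes of -1.45 (SE 0.18, adjusted p = 0.00317) in Ddx6-KO cells and -1.35 (SE 0.18, adjusted p = 0.00448) in TOM cells. Eif2ak2 had 11.2 and 10.2 FPKM in Ddx6-KO day 2 libraries and 27.7 and 21.2 FPKM in Ddx6-KO day 0 libraries. In TOM libraries it had 13.8 and 12.4 FPKM at day 2 and 54.3 and 55.7 FPKM at day 0. Its Ddx6-KO libraries of day 0 thus lay below the TOM libraries of that day. Impact, an inhibitor of Gcn2, was called lower in Ddx6-KO cells, with differences from TOM cells of -0.77 (SE 0.18, adjusted p = 0.0271) at day 2, lost in 5 of the 8 fits that left out a library, and -1.74 (SE 0.18, adjusted p = 0.00198) at day 0. Impact lies on chromosome 18, whose median, given above, went the other way. Of 16 chaperones and factors of the unfolded protein response, 4 were called higher at day 0 and 3 lower at day 2 in Ddx6-KO cells, relative to TOM cells. These stand against 6.55% and 8.58% of all genes tested. Xbp1, a transcription factor of that response, had 16.4 and 21.1 FPKM in Ddx6-KO day 2 libraries, 32.2 and 25.05 FPKM in Ddx6-KO day 0 libraries, 40.8 and 38.97 FPKM in TOM day 2 libraries and 17.4 and 13.7 FPKM in TOM day 0 libraries. Its difference between Ddx6-KO and TOM was -1.06 (SE 0.20, adjusted p = 0.0128) at day 2 and 0.84 (SE 0.20, adjusted p = 0.0387) at day 0, the second of which was lost with TPM and in 6 of the 8 fits that left out a library.

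Other transcripts linked to Atf4 moved both ways: of 14, 6 were lower and 1 higher over induction in Ddx6-KO cells, and 4 were lower and 4 higher in TOM cells. Vegfa, an angiogenic growth factor that hypoxia also induces, had 48.7 and 42.8 FPKM in Ddx6-KO day 2 libraries, 122 and 104 FPKM in Ddx6-KO day 0 libraries, 135 and 117 FPKM in TOM day 2 libraries and 35.9 and 45.6 FPKM in TOM day 0 libraries. It was highest in Ddx6-KO day 0 and TOM day 2 libraries, with changes of -1.28 (SE 0.17, adjusted p = 0.00441) in Ddx6-KO cells and 1.61 (SE 0.17, adjusted p = 0.00167) in TOM cells. Of 27 other amino acid and folate enzymes tested, 2 fell and 3 rose in Ddx6-KO cells and 1 was lower and 3 higher in TOM cells. The lower ones were 7.4% in Ddx6-KO cells and 3.7% in TOM cells, near the shares over all genes. The higher ones were 11.1% in each line. Glul, the glutamine synthetase and a known glucocorticoid target, had 142 and 129 FPKM in Ddx6-KO day 2 libraries, 20.9 and 17.7 FPKM in Ddx6-KO day 0 libraries, 72.5 and 71.5 FPKM in TOM day 2 libraries and 2.67 and 3.38 FPKM in TOM day 0 libraries. Every day 2 library exceeded every day 0 library, by 2.75 (SE 0.16, adjusted p = 0.000136) in Ddx6-KO cells and 4.19 (SE 0.16, adjusted p = 5.7e-05) in TOM cells. Of 13 other amino acid transporters tested, 2 fell and 2 rose in Ddx6-KO cells and 3 fell and 3 rose in TOM cells, and of 12 mTORC1 sensors and regulators 1 was lower and 1 higher in Ddx6-KO cells and 1 lower in TOM cells.

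**Figure D4:**
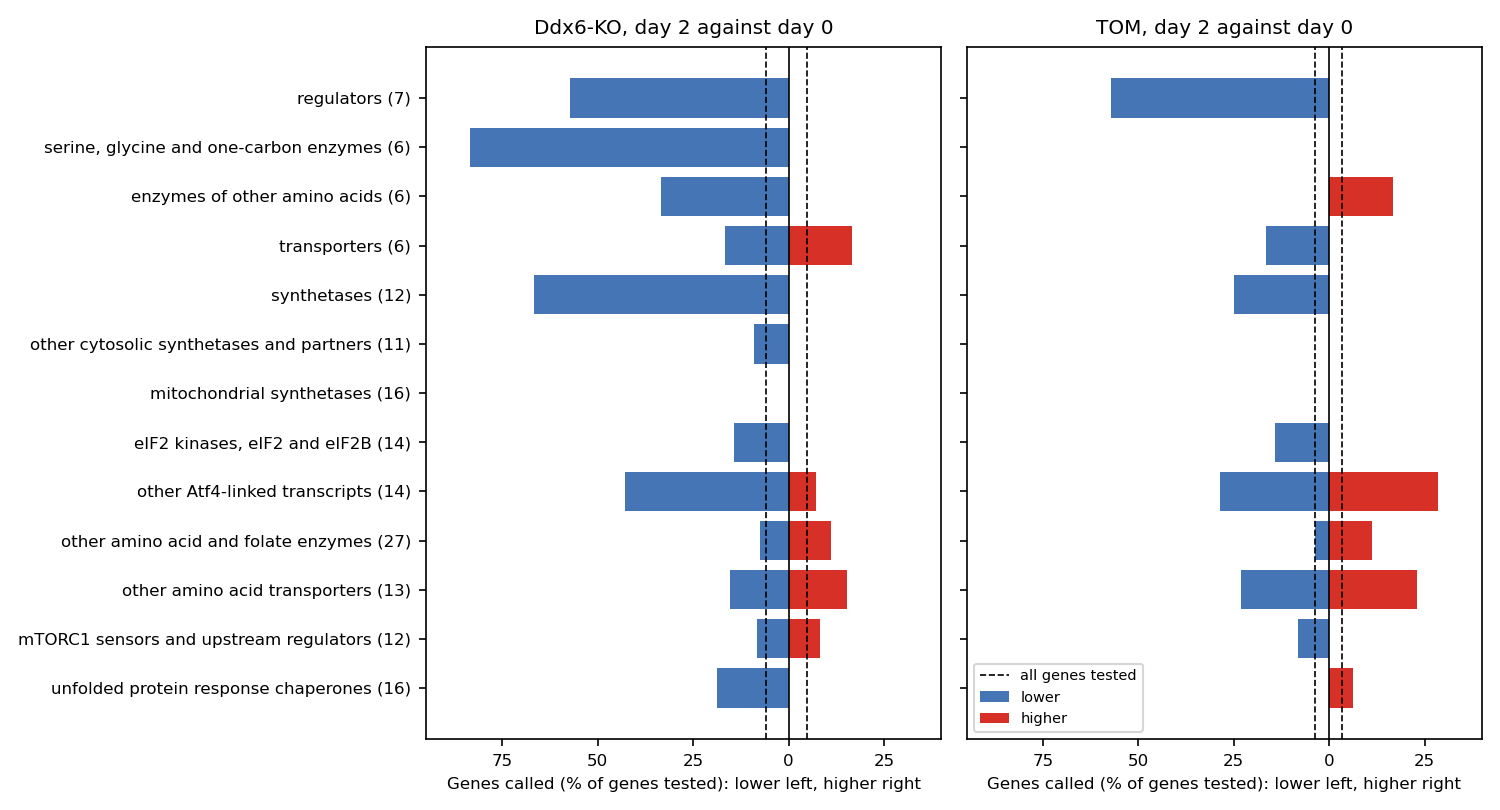
Share of genes called lower (blue, left of 0) and higher (red, right of 0) at day 2 against day 0, as a percentage of the genes tested in each list (number in brackets), in Ddx6-KO cells on the left and TOM cells on the right. Dashed lines mark the shares over all genes tested, 5.85% lower and 4.8% higher in Ddx6-KO cells and 3.74% lower and 3.4% higher in TOM cells, and the longest bar is that of the 6 serine and one-carbon enzymes in Ddx6-KO cells at 83.3%.

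By promoter, 8 of the 12 tested members with the motif were lower over induction in Ddx6-KO cells, with a median of -1.04, and 10 of the 19 with a window but no motif were, with a median of -0.82. In TOM cells 4 of 12 and 2 of 19 were lower, with medians of -0.35 and -0.33. At day 2, 4 of 12 members with the motif and 8 of 19 without were called lower in Ddx6-KO cells, relative to TOM cells. Of all genes tested, 5.85% were called lower over induction in Ddx6-KO cells and 3.74% in TOM cells. The share called lower in Ddx6-KO cells at day 2, relative to TOM cells, was 8.58%. No test was made of the counts by promoter.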

How the data were processed

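RNA from 8 samples of 3T3-L1 cells was sequenced by the authors with a stranded total RNA kit. Per the labels and the study's methods, reads were aligned with TopHat2 2.1.0 to GRCm38/mm10, and the deposited FPKM of 46073 Ensembl genes came from Cufflinks 2.2.1, which estimates fragments and normalises them to transcript length and library size. For the annotation release, no source used here gives a name. The table was used as deposited. Symbols were taken from GENCODE M21, which named 45139 of the IDs, and promoter sequences from RefSeq (GRCm38.p6). The promoter stretch of Aars is not reported here.

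Columns were tied to groups by line and day only, because the column numbers (1 and 2) and the replicate numbers of the titles do not match in every group. The 15811 genes that reached 1 FPKM in 2 or more libraries were tested in limma 3.58.1 (R 4.3.3) on log2(FPKM + 1), with 4 group means, variances that follow mean expression and Benjamini-Hochberg adjustment within each of 5 comparisons. Other work used Python 3.11.15 with pandas 2.3.3. Because the deposited values are not counts, no count model was fitted. The procedure was tested on simulated data.

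Depth was approximated as the number of fragments that makes the commonest lowest FPKM of long genes with 1 transcript equal to 1 fragment. No interval was computed from it.

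The members and all lists were chosen with earlier results of these data known. All 40 members may be named. Values of every library and tests are given for Atf4, Atf5 and up to 4 members of each role with the smallest p in any comparison, and up to 3 genes of each further list are named by the same rule. Further members named with a test were chosen after their values were seen. Alternatives were the pseudocount (0.1 and 5), the filter (none and 5 FPKM), TPM, median-ratio and quantile scaling, the variance model, the libraries of a comparison alone, a threshold of 0.1, each library left out in turn, and, added after seeing the data, a replicate block by column number.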

Additional observations from a re-analysis of the deposited data

Results flagged for a closer look

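The change between day 2 and day 0 differed between Ddx6-KO and TOM cells for 3 members, by limma's test of the interaction of line and day. The difference of changes was -1.11 for Atf4, -1.97 for Mthfd2 and -2.48 for Cth on the log2 scale. Of all genes tested, 2.17% had a lower difference of changes. The calls of Atf4 and Mthfd2 were each lost in 5 of the 8 fits that left out a library, and that of Cth in 4. In Atf4 and Mthfd2 the Ddx6-KO change was called and the TOM change was not, and in Cth the TOM change was called and the Ddx6-KO change was not. Groups of 2 libraries were too small to look for a library far from its group.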

How the results depend on the processing

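Of the 59 calls of members, 13 held in all alternatives, 17 held in all 8 fits that left out a library, and none changed direction. With no filter on low values the members called at day 0 were 2 higher and 3 lower, and those called lower over induction were 10 in Ddx6-KO and 5 in TOM cells. With the libraries of a comparison alone, 0 members were higher and 3 lower at day 2, 0 were higher and 8 lower over induction in Ddx6-KO cells, and 1 was lower in TOM cells. With TPM, and with no variance trend, 0 were higher over induction in Ddx6-KO cells, and with no variance trend 5 were lower in TOM cells. With a filter at 5 FPKM, and with a threshold of 0.1, the difference of changes was higher for 1 member and lower for 5. The fits to a comparison alone used fewer libraries, and the cause of these moves was not tested.

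When each library was left out in turn, the number of members higher and lower ranged from 1 to 4 and from 1 to 5 at day 0, from 2 to 3 and from 6 to 12 at day 2, from 0 to 2 and from 6 to 15 over induction in Ddx6-KO cells, from 1 to 1 and from 2 to 8 over induction in TOM cells, and from 0 to 0 and from 0 to 3 for the difference of changes. A group left with 1 library was assumed to vary like the others. With a replicate block by column number, 13 members were lower over induction in Ddx6-KO cells and the other counts stayed within 1.5 times of those without it. Libraries with the same column number did not deviate together (r between -0.10 and 0.07). Column numbers are not tied to the replicate numbers of the titles, so these values cannot decide whether libraries were paired. The block by the numbers of the titles was not run. With TPM 357 of all genes were called higher and 1917 lower over induction in Ddx6-KO cells, against 759 and 925 as deposited, and 285 and 726 in TOM cells, against 538 and 592.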
